A study of Mus musculus with 4 samples.

Results

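EN2 is 1 of 13 subtypes of excitatory neuron that the authors' deposited annotation gives to nuclei of the mouse superior colliculus, and its members are the nuclei that carry that label. There were 474 of them among 4093 excitatory nuclei and 9724 nuclei of all classes. The label is a cluster name and has nothing to do with the gene En2, for which EN2 nuclei held almost no transcripts. The E19 library (embryonic day 19) held 287 EN2 nuclei, the P4 library (postnatal day 4) 107, the P8 library 44 and the P21 library 36. These were 21.4% (95% interval 19.3 to 23.7), 8.87% (7.33 to 10.6), 5.07% (3.71 to 6.75) and 5.28% (3.72 to 7.23) of the excitatory nuclei of each library, so that the share was highest at E19 and the shares at P8 and P21 overlapped in their intervals.

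The study profiled nuclear RNA of the developing superior colliculus by droplet sequencing, with 1 library for each of the 4 stages. All groups were C57BL/6J mice with no treatment given in the labels, and each library was made from microdissected tissue pooled over several animals, so no animal can be told from another. One label of the embryonic sample names an earlier embryonic day than its title, and the stage in the title was used. Because a stage is 1 library, stages differ only as single libraries do, without any replicate, and intervals cover counting error only. No p-value is given.

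The superior colliculus is a layered midbrain structure that turns visual and other sensory signals into orienting movements. Its excitatory neurons release glutamate loaded into vesicles by the transporter VGLUT2, the product of Slc17a6, and combinations of transcription factors distinguish their types. Around and after birth these neurons stop extending axons, form synapses and replace the tubulins and growth proteins of young neurons with channels, receptors and release machinery.

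Levels below are in CPM: the unique molecular identifiers (UMIs, counted transcripts) of a gene summed over the nuclei of a group in 1 library, scaled to 1000000 UMIs of that sum. EN2 gave 2122848, 1243536, 747562 and 740361 UMIs at the 4 stages in order, so that 100 CPM stood for 212 UMIs at E19 and for 74.0 at P21. The median nucleus of EN2 had 7082, 11037, 16323 and 19846 UMIs, against 8400, 11795, 14090 and 19591 in the other excitatory nuclei. A gene with a single-stage EN2 value of a few CPM therefore rests on very few molecules. Among the whole series' libraries, Xist had a UMI in 0.348% of EN2 nuclei at E19 and in 27.3% to 55.6% at the later stages, so the sex make-up of the pools differed. Transcripts of Ttr, made by the choroid plexus, had a UMI in 41.1% of EN2 nuclei and 55.3% of other excitatory nuclei at P4 and in no EN2 nucleus at the other stages. This is a measure of free RNA in the P4 library, and its part in the P4 values was not tested. Libraries shared 9 cell barcodes, 2 of which belonged to an EN2 nucleus and none of which was EN2 in both libraries.

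Slc17a6 was present at the level of excitatory neurons. From E19 to P21 it stood at 304, 309, 233 and 227 CPM in EN2, near the 282, 235, 179 and 173 CPM of the other excitatory subtypes. A Slc17a6 UMI was found in 81.2%, 90.7%, 88.6% and 88.9% of EN2 nuclei, and in 55.3%, 58.7%, 47.7% and 58.3% once each nucleus was thinned to 3000 UMIs and shallower nuclei (5 at E19 and 3 at P4) were left out. In inhibitory neurons, where the gene should be silent, the thinned shares were 11.6%, 10.4%, 5.24% and 2.31% (unthinned 23.9%, 24.8%, 16.9% and 11.2%). Slc17a7, the cortical vesicular glutamate transporter, was at 0, 0, 8.03 and 12.2 CPM.

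Markers of other cell types were low in EN2. The summed level of 7 inhibitory neuron markers was 102 to 181 CPM over the stages, against 1013 to 1377 CPM in inhibitory neurons themselves, and 5.23% to 8.33% of EN2 nuclei held 2 or more UMIs of GABA-synthesis and transport genes, against 91.6% to 98.4% of inhibitory nuclei. Summed astrocyte markers ranged from 144 to 217 CPM and microglial markers from 25.4 to 37.0 CPM in EN2. A sum over 6 oligodendrocyte genes was 52.3, 61.9, 32.1 and 108 CPM in EN2 from E19 to P21, while the oligodendrocyte lineage itself went from 229 to 18502 CPM. The P21 value of EN2 lay below the 147 CPM of the other excitatory neurons and the 165 CPM of inhibitory neurons, so the higher level at P21 was shared by all neurons, and its part in other P21 values was not tested.

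**Figure D1:**
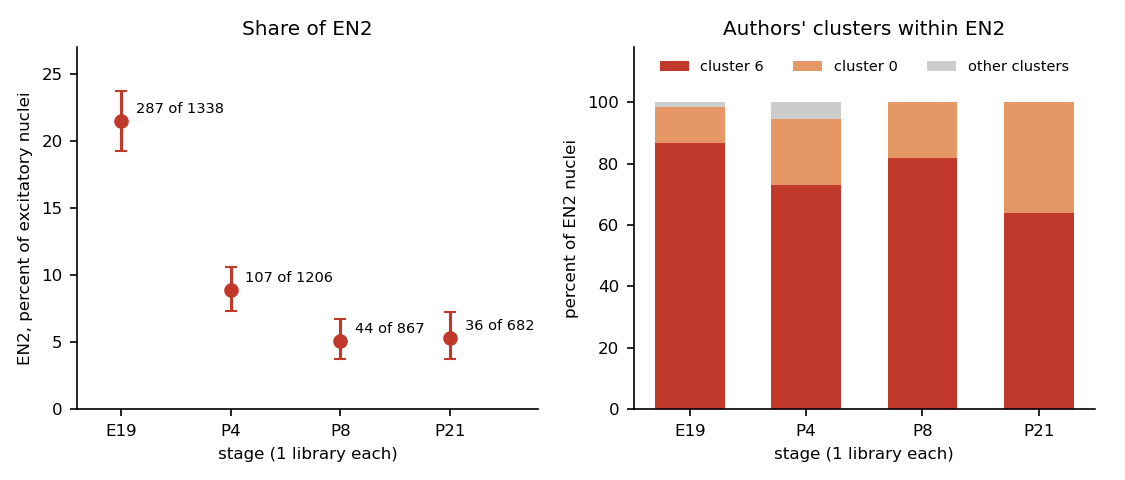
Left, EN2 as a percent of excitatory nuclei in each library, with exact 95% intervals and the numbers of nuclei; right, the share of EN2 nuclei that the authors' clustering put in cluster 6, cluster 0 or elsewhere. The share is 21.4% at E19 and 5.07% to 5.28% at P8 and P21, and cluster 6 holds most EN2 nuclei at every stage.

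A small group of genes, 3 of them for transcription factors, was higher in EN2 than in the other excitatory nuclei at every stage. Clustering of these same nuclei defined EN2, so the ratios in this and the next 4 paragraphs describe the cluster and are not tested. At 50 CPM or more in EN2, 8 of 3730 genes (0.214%) were 2-fold or more higher than in the other excitatory nuclei of the same library at all 4 stages, on the scale of log2(CPM + 5). They were Meis2, Zfhx3, Zfhx4, Cbln2, Cdh9 and 3 genes for long noncoding RNAs, G630016G05Rik, 2700069I18Rik and Gm28905. With 20 CPM added in place of 5, 4 remained (G630016G05Rik, Gm28905, Meis2 and Zfhx3), and with each nucleus thinned to 3000 UMIs Cbln2, Cdh9 and Gm28905 were no longer past the limit at all stages. The reverse, 2-fold or more lower at all 4 stages, held for 20 of 3716 genes (0.538%) at 50 CPM or more in the others.

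Meis2, a homeodomain transcription factor of the TALE family, stood in EN2 at 2040 CPM (1980 to 2102) at E19, then 1247, 1787 and, at P21, 777 CPM (714 to 843). The other excitatory nuclei together had 496, 255, 334 and 243 CPM, which gives log2 ratios of 2.03, 2.27, 2.40 and 1.66. EN2 was second among the subtypes at every stage, behind EN12 with 3590, 2282, 2015 and 1540 CPM, and the median over the other subtypes was 127 to 307 CPM. After thinning, 81.6%, 63.5%, 93.2% and 69.4% of EN2 nuclei had a Meis2 UMI, against 37.9%, 21.9%, 28.1% and 24.0% of the other excitatory nuclei and 34.1%, 25.9%, 36.8% and 33.9% of inhibitory nuclei. Unthinned, the EN2 shares were 86.8%, 69.2%, 95.5% and 88.9%. Meis2 was thus detected in most EN2 nuclei at each stage, and among the other subtypes EN10 also reached 1334 CPM at E19 and 844 CPM at P8.

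Zfhx3 and Zfhx4 encode related large zinc-finger homeodomain proteins. Zfhx3 was at 3428, 1880, 1645 and 1383 CPM in EN2 and at 1006, 786, 363 and 488 CPM in the others (log2 ratios 1.76, 1.25, 2.17 and 1.49). Zfhx4 was at 769, 331, 223 and 253 CPM against 187, 135, 80.6 and 117 CPM (2.01, 1.26, 1.42 and 1.08). EN2 was the highest of the excitatory subtypes with 20 or more nuclei for both genes at all stages, with EN7 next for Zfhx3 at E19 (2073 CPM) and EN1 at P21 (959 CPM). Neither gene was restricted to excitatory cells, since inhibitory neurons held 2307, 1703, 1936 and 1413 CPM of Zfhx3 and 453, 344, 424 and 328 CPM of Zfhx4. For both genes the inhibitory level was near EN2 at P4 and above it at P8 and P21, by little for Zfhx3 at P21.

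Of the 3 noncoding genes, 2 lie beside these factors in the genome (GRCm38, GENCODE M21). Meis2 spans positions 115863064 to 116065839 of chromosome 2 on the minus strand, and G630016G05Rik starts 1385 bases away on the plus strand, at 116067225 to 116085911. Its levels were 66.4, 47.4, 88.3 and 49.98 CPM in EN2 and 13.4, 7.40, 11.1 and 12.7 CPM in the others. The antisense gene 2700069I18Rik (chromosome 3, 5177586 to 5220841, minus strand) shares 2316 bases with the start of Zfhx4 (5218526 to 5415857, plus strand) and was at 224, 153, 120 and 51.3 CPM against 64.5, 52.2, 23.5 and 18.2 CPM. Strand use in the counting is not stated in the sources used here. Whether UMIs of Zfhx4 and 2700069I18Rik were told apart over the shared bases is therefore not known here. The remaining one, Gm28905 on chromosome 10, was at 317, 260, 219 and 419 CPM against 138, 109, 86.6 and 145 CPM.

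The other 2 protein-coding members act at the cell surface or outside the cell. Cbln2, which encodes a secreted cerebellin that bridges presynaptic neurexins and postsynaptic receptors, was at 139, 125, 89.6 and 45.9 CPM in EN2 against 46.6, 48.6, 21.9 and 18.8 CPM. EN2 was the highest subtype for Cbln2 from E19 to P8 and second to EN12 at P21 (56.3 CPM). Cdh9, a classical cadherin, was at 187, 229, 142 and 153 CPM against 88.4, 63.9, 59.95 and 57.3 CPM, and EN2 was again the highest subtype, although EN4 was close at P8 (128 CPM) and P21 (141 CPM). Just outside the 2-fold limit stood Reln, the gene of the secreted protein reelin, with 480, 346, 768 and 463 CPM against 210, 177, 209 and 178 CPM (lowest log2 ratio 0.95, at P4), and Kcnip3, which encodes a calcium-binding partner of potassium channels, with 87.6, 70.8, 68.2 and 87.8 CPM against 36.5, 29.4, 30.8 and 44.4 CPM (lowest 0.91, at P21). Trpc4, a cation channel gene, had 52.3, 59.5, 48.2 and 70.2 CPM against 27.1, 16.9, 13.7 and 15.1 CPM and missed the limit at E19 (0.84).

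**Figure D2:**
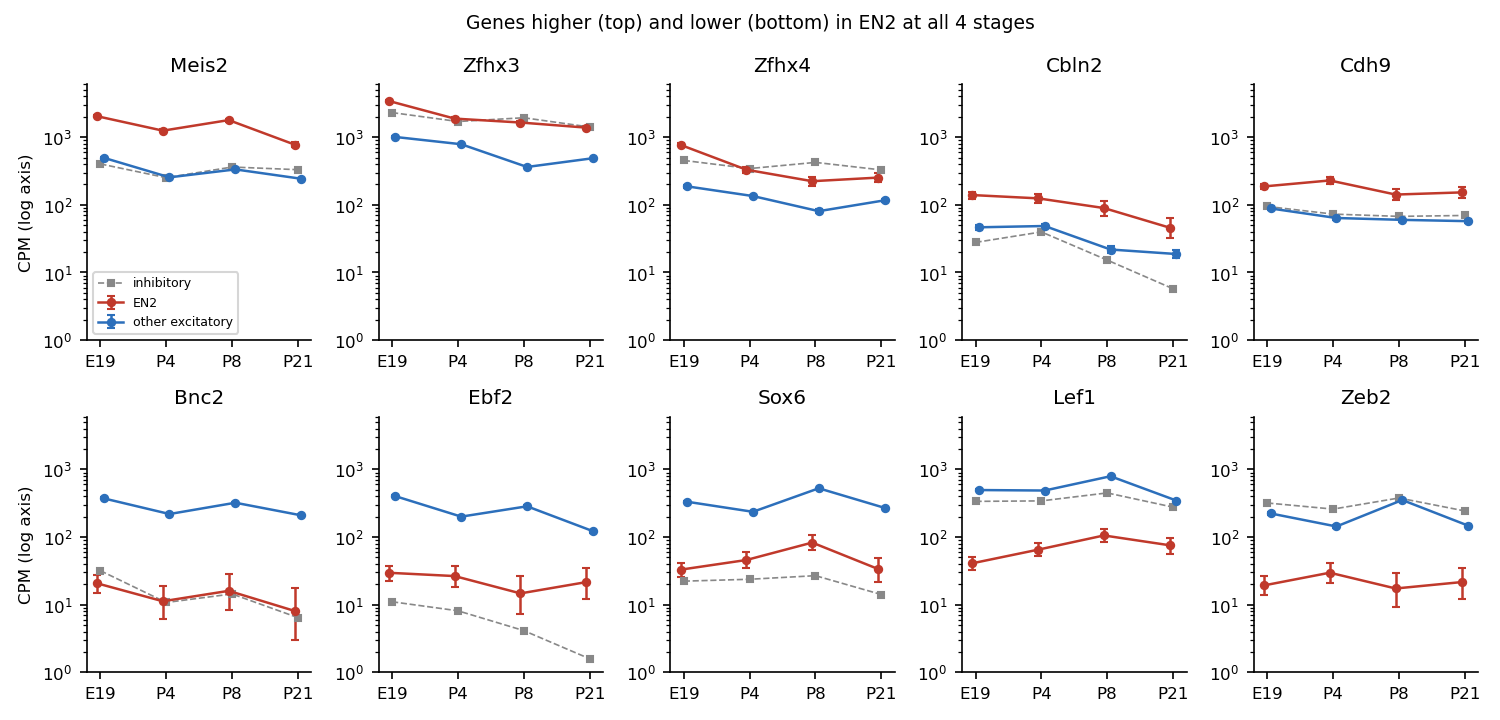
CPM on a log axis by stage in EN2, in the other excitatory nuclei and in inhibitory neurons, with exact 95% Poisson intervals for the first and second; 5 genes higher in EN2 at all stages are in the top row and 5 lower in the bottom row. Bnc2 in EN2 lies near the level of inhibitory neurons, while Lef1 and Zeb2 in EN2 lie below both other groups.

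The 20 genes lower in EN2 at all stages included 8 for transcription factors (Bnc2, Ebf1, Ebf2, Ebf3, Lef1, Sox6, Tfap2b and Zeb2), and the others were of mixed function. Bnc2, a zinc-finger gene, was at 20.7, 11.3, 16.1 and 8.10 CPM in EN2 and at 374, 219, 322 and 210 CPM in the other excitatory nuclei, with log2 ratios of -3.88, -3.78, -3.96 and -4.03. The Ebf genes encode helix-loop-helix transcription factors. Ebf2 was at 29.7, 26.5, 14.7 and 21.6 CPM against 403, 200, 285 and 122 CPM, and Ebf3 at 124, 47.4, 14.7 and 16.2 CPM against 611, 290, 408 and 182 CPM. For Ebf2 a single nucleus supplied 63.6% of the 11 UMIs at P8 and 81.2% of the 16 at P21, so most EN2 nuclei had none. Sox6 was at 33.0, 45.8, 82.9 and 33.8 CPM against 333, 236, 526 and 270 CPM, and the repressor gene Zeb2 at 19.3, 29.8, 17.4 and 21.6 CPM against 224, 143, 353 and 148 CPM.

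Lef1, a DNA-binding partner of beta-catenin in Wnt signalling, separated EN2 from all other subtypes. Its level was 41.0 CPM (32.8 to 50.6) at E19, then 65.1, 106 and, at P21, 75.6 CPM (57.1 to 98.2), against 495, 487, 792 and 347 CPM in the other excitatory nuclei and 337, 343, 449 and 277 CPM in inhibitory neurons. EN2 was the lowest of 13 subtypes at E19 and P4 and of 11 at P8 and P21, and the next lowest stood at 131, 138, 298 and 105 CPM. The gap at P21 was narrow, and the EN2 nuclei of cluster 0, described below, stood above 105 CPM at that stage. Thinned to equal depth, a Lef1 UMI was found in 8.87%, 10.6%, 29.5% and 16.7% of EN2 nuclei and in 50.5%, 58.6%, 80.02% and 57.8% of other excitatory nuclei (unthinned 17.4%, 30.8%, 56.8% and 47.2% against 63.0%, 76.8%, 92.5% and 86.4%). By contrast Bnc2, although lower than the average, was not lowest in EN2: EN12 was at 0 CPM at E19 and 3.02 at P8, and EN13 at 3.48 at P21.

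**Figure D3:**
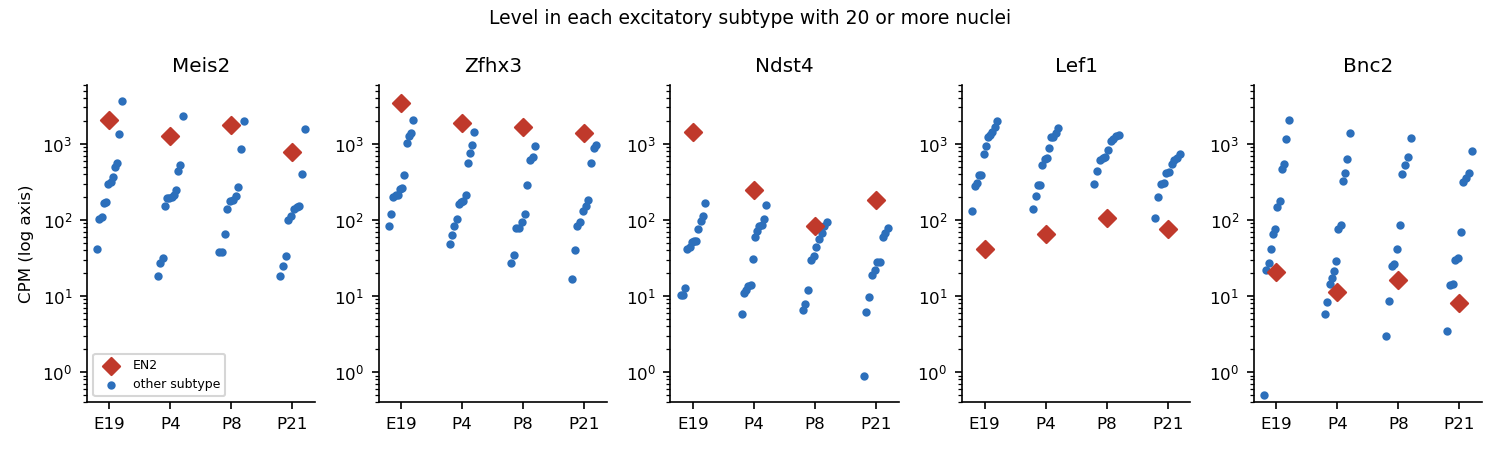
Each point is 1 excitatory subtype with 20 or more nuclei at that stage (13 at E19 and P4, 11 at P8 and P21), in CPM on a log axis with values under 0.5 drawn at 0.5, and the diamond is EN2. EN2 is the highest for Zfhx3 and the lowest for Lef1 at all 4 stages, second for Meis2, and far above every other subtype for Ndst4 at E19.

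Signalling and adhesion genes on the low side included Ntng2, a membrane-anchored netrin, at 24.0, 28.9, 40.1 and 36.5 CPM against 285, 230, 349 and 147 CPM. Gfra1, a co-receptor for the neurotrophic factor GDNF, was at 44.3, 25.7, 53.5 and 36.5 CPM against 205, 142, 302 and 193 CPM. Kitl, the ligand of the receptor Kit, was at 8.95, 35.4, 6.69 and 4.05 CPM against 56.5, 149, 83.8 and 72.7 CPM, and it no longer passed the limit at all stages when EN7, a subtype found mostly at P4 (191 nuclei, with 33 at E19 and 1 each at P8 and P21), was left out of the others. Ebf1 was lower too, at 89.97, 276, 219 and 134 CPM against 1067, 801, 981 and 657 CPM, but with a marked spread inside EN2 that is described below.

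Gene lists were counted at 20 CPM or more. Of 52 measured neuronal transcription factors 3 were higher in EN2 at all 4 stages (Meis2, Zfhx3 and Zfhx4) and 7 lower (Bnc2 is not on this list; the 7 were Tfap2b, Ebf1, Ebf2, Ebf3, Sox6, Lef1 and Zeb2). Over all 7123 genes at that level, 9 (0.126%) were higher and 27 (0.379%) lower. Of 66 adhesion and synapse organiser genes 1 was higher and 1 lower (Cbln2 and Ntng2), of 21 cadherins 1 was higher (Cdh9) and of 18 growth factor genes 2 were lower (Gfra1 and Kitl). No member of the lists of glutamate receptors (16 ionotropic, 6 metabotropic), GABA-A and glycine receptors (18), potassium channels (39), sodium, calcium and HCN channels (27), presynaptic release genes (36) or axon guidance genes (57) passed the limit at all 4 stages in either direction, and at these shares over all genes few or no calls would stand in lists of that size.

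The subtypes nearest to EN2 were EN1 and EN3. Likeness was measured by the absolute log2 ratio to EN2 that 90% of genes at 100 CPM or more stayed under, from sums thinned to equal depth and averaged over stages, and among the 9 subtypes deep enough it was 0.872 for EN1, 0.919 for EN3 and 1.07 for EN11, up to 1.46 for EN6. Pearson's r of the log2 levels across genes, which are not independent, gave the same first and second, at 0.885 and 0.866. Among genes higher in EN2 than in EN1, Meis2 led, at 488, 212, 270 and 113 CPM in EN1, followed by genes such as Bcl11b, a zinc-finger transcription factor of projection neurons, at 358, 258, 270 and 131 CPM in EN2 and 99.9, 75.8, 44.0 and 44.9 CPM in EN1. On the low side stood Bnc2, at 469, 323, 529 and 313 CPM in EN1, and Sox6, at 278, 287, 660 and 334 CPM in EN1.

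Against EN3 the genes that led differed. EN3 held 543, 472, 558 and 420 CPM of the noncoding gene B230323A14Rik, of which EN2 had 12.7, 9.65, 50.8 and 6.75 CPM, and 512, 370, 390 and 172 CPM of the transcription factor gene Tfap2b, of which EN2 had 69.7, 24.1, 76.2 and 8.10 CPM. Ntng2 was at 709, 595, 531 and 263 CPM in EN3. Meis2 led on the high side as it did against EN1, with 315, 193, 177 and 151 CPM in EN3, and Bcl11b (106, 42.0, 50.3 and 31.3 CPM in EN3) and Cdh9 (54.0, 77.4, 43.0 and 41.0 CPM in EN3) were also among the genes higher in EN2. Meis2 thus separated EN2 from both of its nearest subtypes, and low Bnc2 was among the leading differences from EN1 but not from EN3.

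At E19 EN2 carried a second set of high genes that were far lower at later stages, most of the difference lying between E19 and P4. Ndst4, which encodes an enzyme that sulphates heparan sulphate chains, was at 1444 CPM (1394 to 1496) at E19, then at 244 (218 to 274), 84.3 (64.8 to 108) and, at P21, 181 (152 to 214). The other excitatory nuclei were at 92.4, 77.3, 47.1 and 40.1 CPM, so that the log2 ratio of EN2 to the others went from 3.90 at E19 to 1.60, 0.78 and 2.04. The forkhead factor gene Foxp2 was at 1087, 235, 95.0 and 262 CPM in EN2 and at 373, 384, 146 and 154 CPM in the others. EN2 was therefore above the others in Foxp2 at E19 (log2 ratio 1.53) and P21 (0.75) and below them at P4 (-0.70) and P8 (-0.59).

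Tfap2d, a transcription factor gene of the AP-2 family, was at 702, 172, 48.2 and 81.0 CPM in EN2 against 195, 102, 95.2 and 60.1 CPM. Sst, the gene of the neuropeptide somatostatin, was at 554 CPM (522 to 586) at E19, 121 (102 to 142) at P4, 4.01 (0.828 to 11.7, from 3 UMIs) at P8 and 12.2 (5.56 to 23.1, from 9 UMIs) at P21, against 68.4, 18.3, 12.5 and 4.40 CPM. The ratio of Sst at P4 to P8 within EN2 was 30.1, with a counting interval of 10.1 to 147. Glis3, a zinc-finger gene, was at 153, 59.5, 6.69 and 6.75 CPM against 26.7, 11.2, 7.39 and 8.29 CPM, and Sema3a, a secreted repellent of axons, at 98.9, 23.3, 4.01 and 2.70 CPM against 14.03, 7.76, 5.46 and 2.88 CPM. In Glis3 and Sema3a EN2 stood above the others at E19 and P4, and the groups overlapped within counting error at P8 and P21.

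How far other subtypes showed the same change was compared over the 10 others with 20 or more nuclei at both E19 and P21. From E19 to P21 the log2 ratio of Ndst4 was -2.96 in EN2, and 6 of the 10 others had the same sign, with a range of -2.86 to 0.82 and a median of -0.73. For Foxp2 it was -2.03 in EN2 with 9 of 10 of the same sign (median -0.84, range -2.64 to 0.39), and for Glis3 -3.75 with 6 of 10 (median -0.73, range -2.26 to 0.53). Tfap2d (-3.04 in EN2) and Sst (-5.02) were lower at P21 in all 10 others as well, with ranges of -2.54 to -0.42 and -4.85 to -1.66. At E19 the median over the other subtypes was 14.2 CPM for Glis3 and 39.7 CPM for Sst, against 153 and 554 CPM in EN2. With 5 CPM added, such low starting levels limit how far a log2 ratio can fall. EN6, with Glis3 at 0 CPM at both stages, counted as not of the same sign. The log2 ratio of EN2 lay below the range of the others in Ndst4, Tfap2d, Sst and Glis3, and inside it in Foxp2. These genes were named for their falls in EN2 or for their difference from the other subtypes, so this is a description.

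**Figure D4:**
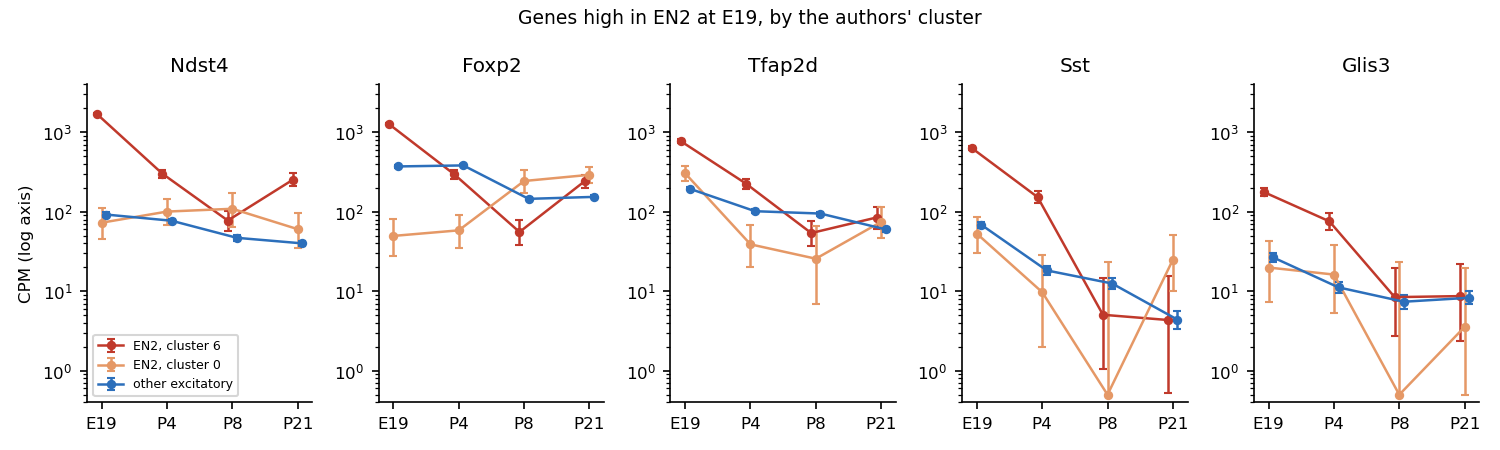
CPM on a log axis by stage for 5 genes, split into EN2 nuclei of the authors' clusters 6 and 0, with the other excitatory nuclei for comparison; bars are exact 95% Poisson intervals and values under 0.5 are drawn at 0.5. At E19 Ndst4, Foxp2, Sst and Glis3 are high in cluster 6 and not in cluster 0, which held 8 EN2 nuclei at P8 and 13 at P21.

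EN2 was not uniform. The authors' cluster numbers placed 386 of its nuclei (81.4%) in cluster 6, of whose 433 nuclei EN2 made up 89.1%, and 78 (16.5%) in cluster 0, which is shared with other subtypes (EN2 was 4.96% of it). Cluster 6 held 86.8%, 72.9%, 81.8% and 63.9% of EN2 nuclei from E19 to P21. Of the E19 set, Ndst4 and Foxp2 were high at E19 in cluster 6 and not in cluster 0. Ndst4 was at 1693, 302, 77.7 and 255 CPM in cluster 6 and 73.0, 101, 109 and 60.6 CPM in cluster 0, and Foxp2 at 1274, 297, 55.7 and 244 CPM and 49.8, 58.5, 244 and 292 CPM. Within cluster 6 alone these genes were thus lower at P4 than at E19 by nearly as much as over all EN2 nuclei. Within the narrower class 3 of a second label set, described next, the difference in Ndst4 was smaller (1719 and 492 CPM). Sst was likewise at 627 and 153 CPM in cluster 6 at E19 and P4 and at 53.1 and 9.75 CPM in cluster 0.

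Zfhx3 was high in both clusters, at 3549, 2072, 1627 and 1431 CPM in cluster 6 and 2794, 1387, 1716 and 1304 CPM in cluster 0. Meis2 was at 2034, 1342, 2064 and 1012 CPM and 2190, 1134, 733 and 391.9 CPM, alike at E19 and higher in cluster 6 at P8 and P21. Reln differed more, with 523, 378, 936 and 690 CPM in cluster 6 and 209, 253, 129 and 92.6 CPM in cluster 0. Cdh6, another cadherin gene, was at 315, 431, 294 and 191 CPM against 255, 257, 38.6 and 10.7 CPM, so that at P8 and P21 it was almost confined to cluster 6. Lef1 was below 50 CPM in cluster 6 at E19, P4 and P21 (33.4, 45.3 and 34.8 CPM, with 82.8 at P8) and at 86.3, 120, 193 and 143 CPM in cluster 0.

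A second set of deposited labels, which refer each nucleus to a numbered class of a Vectorseq data set, divided EN2 further. Class 3 held 265 EN2 nuclei (55.9%) and consisted of EN2 to 86.9%, and class 0 held 108. Class 3 took 71.8%, 34.6%, 25.0% and 30.6% of EN2 from E19 to P21, and class 0 took 9.41%, 46.7%, 45.5% and 30.6%, so at P4 and P8 the composition of EN2 by these labels was different from that at E19. Ebf1 was at 54.1, 48.4, 5.43 and 9.49 CPM in class 3 and 237, 420, 454 and 371 CPM in class 0, whereas Cdh9 was at 220, 363, 320 and 389 CPM and 75.9, 188, 98.9 and 39.2 CPM. Ndst4 was at 1719, 492, 136 and 332 CPM in class 3 and 65.4 to 81.5 CPM in class 0.

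Ebf1 and Cdh9 also stood out in the spread between single nuclei of a stage. Excess variation, the variance beyond counting noise divided by the squared mean after thinning to 3000 UMIs, was highest for Ebf1 among the 1272 genes measured, at 11.5, 8.79, 11.0 and 7.02, while the median gene's lowest value was -0.0589. Il1rapl2, a synaptic adhesion gene, followed with 7.03, 3.76, 5.67 and 3.52, and Cdh9 had 2.21, 2.99, 6.00 and 2.31. A UMI of Ebf1 was found in 22.3%, 36.4%, 38.6% and 33.3% of EN2 nuclei (thinned 13.5%, 26.0%, 11.4% and 11.1%), against 72.1%, 73.8%, 85.2% and 81.9% of other excitatory nuclei (thinned 61.1%, 58.9%, 71.5% and 64.7%). In inhibitory neurons the thinned shares were 17.99%, 10.8%, 9.84% and 6.80%, and at E19 the EN2 share lay below the inhibitory one. At P8 and P21 the intervals of the thinned EN2 shares (3.79% to 24.6% and 3.11% to 26.1%) included the inhibitory share. The thinned mean was nevertheless 0.818 UMIs per EN2 nucleus at P8 and 0.306 at P21, so that few nuclei held several Ebf1 UMIs each, as the class 0 levels above also show.

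Within single nuclei at E19 these genes were found together more often than their shares over all EN2 nuclei. Of the 282 EN2 nuclei of E19 thinned to equal depth, 169 had a Foxp2 UMI and 181 an Ndst4 UMI, and 141 had both (83.4% of the former and 77.9% of the latter). Sst was found in 89, of which 72 (80.9%) had Foxp2. At P8 only 7 of 44 thinned nuclei had Foxp2 and 8 had Ndst4, and 1 had both. For Foxp2 the share at P8 (15.9%) was below that in inhibitory neurons (48.9%), and for Ndst4 (18.2%) near it (19.2%).

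Between neighbouring stages EN2 moved most, relative to the other subtypes, in its first step. The same 90% bound on the absolute log2 ratio, from sums thinned alike, was 1.06 from E19 to P4, narrowly the highest of 10 subtypes (the others 0.796 to 1.03), 0.874 from P4 to P8 (rank 3) and 1.08 from P8 to P21 (rank 8). The make-up of EN2 by cluster and reference label also differed between E19 and P4, and its part in the first step was not tested. Among genes at 100 CPM or more in the higher stage, 59 of 2127 (2.77%) were 2-fold or more higher at P4 than at E19 and 52 (2.44%) lower. From P4 to P8, 17 of 2078 (0.818%) were higher and 29 (1.4%) lower, and from P8 to P21, 73 of 2148 (3.4%) were higher and 81 (3.77%) lower. The later steps rest on few nuclei, and thinning each nucleus to 3000 UMIs changed their counts to 56 higher and 92 lower from P4 to P8 and to 257 and 196 from P8 to P21.

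The largest rises from E19 to P4 included Htr2c, a serotonin receptor gene, at 40.5, 168, 233 and 600 CPM from E19 to P21, and Ghr, the growth hormone receptor gene, at 30.6, 132, 144 and 135 CPM. Gm28928, a long noncoding RNA gene of chromosome 1, was at 68.3, 413, 1300 and 1810 CPM and led the next step too (log2 ratios 2.51 and 1.64). AC149090.1, on an unplaced scaffold and so less certain as a single gene, was at 92.3, 447, 468 and 968 CPM, and Gm15155 at 50.9, 227, 421 and 199 CPM. In Htr2c, Gm28928, AC149090.1 and Gm15155 all 10 other subtypes were higher at P21 than at E19, and in Ghr 9 of 10 were. Beside Ndst4, Foxp2 and Sst, the largest falls were in Cd24a, a surface glycoprotein gene of young neurons, at 134, 24.9, 8.03 and 1.35 CPM, and Igfbpl1 at 138, 28.1, 9.36 and 8.10 CPM, both lower at P21 in all 10 others as well.

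From P4 to P8 the leading rises after Gm28928 were Dach1 (54.2, 61.1, 170 and 72.9 CPM from E19 to P21), Slc44a5 (57.0, 75.6, 198 and 72.9 CPM), the nuclear receptor gene Rora (2544, 1603, 3763 and 3631 CPM) and Adcy2, an adenylyl cyclase gene (70.2, 165, 391 and 242 CPM). Dach1 and Slc44a5 were high in EN2 at P8 alone among the 4 stages. The falls, after Sst and Tfap2d, were in the tubulin gene Tubb5 (611, 285, 85.6 and 9.45 CPM), in St8sia2, which puts polysialic acid on the adhesion molecule NCAM (273, 121, 34.8 and 16.2 CPM), and in Scd2, a fatty acid desaturase gene (152, 107, 33.4 and 63.5 CPM). Over the longer interval from E19 to P21, only Gm28928 of the 5 rising genes had the sign of EN2 in all 10 others (Adcy2 in 9, Rora in 7, Dach1 in 4 and Slc44a5 in 2). Over that interval the log2 ratio in EN2 itself was only 0.40 for Dach1 and 0.33 for Slc44a5. Whether other subtypes also rose from P4 to P8 is not given by these counts. All 5 of these falling genes were lower at P21 than at E19 in the 10 other subtypes as well.

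From P8 to P21 the leading rises were in Ano3 (10.4, 21.7, 4.01 and 103 CPM), Lrmda (8.48, 34.6, 12.04 and 167 CPM), Naaladl2 (72.5, 91.7, 85.6 and 524 CPM) and the noncoding gene Lncpint (45.7, 70.0, 116 and 646 CPM). Ano3 had 3 UMIs at P8, and its ratio of P21 to P8 was 25.6 with a counting interval of 8.43 to 127. The leading falls were in Nnat, the imprinted neuronatin gene (1227, 528, 297 and 23.0 CPM), Tubb2b (843, 370, 131 and 10.8 CPM), Pfkp, a glycolytic phosphofructokinase gene (633, 1037, 879 and 184 CPM), the sodium channel gene Scn9a (199, 275, 193 and 37.8 CPM) and Rnf220, a ubiquitin ligase gene (143, 197, 189 and 21.6 CPM). For Rnf220 1 nucleus supplied 48.9% of the UMIs at P8. Of the 28 genes named by rank in any of the 3 steps, 20 had the same sign from E19 to P21 in all 10 other excitatory subtypes, which is not a count over the single steps.

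The change from E19 to P21 was furthest above the median of the other subtypes in 4 genes. Cadps2, a gene for priming of secretory vesicles, was at 17.0 CPM (11.9 to 23.5), 72.4, 162 and 300 (262 to 342) CPM in EN2 and at 49.1, 90.4, 76.3 and 81.9 CPM in the other excitatory nuclei, so that EN2 went from below the others at E19 to above them at P8 and P21. Its log2 ratio from E19 to P21 was 3.795 in EN2, with a median of 0.81 and a range of -1.61 to 3.75 in the others, 6 of 10 having the same sign and EN13 nearly the same value. Otof, the gene of the vesicle protein otoferlin, was at 12.2, 46.6, 56.2 and 107 CPM against 37.2, 53.0, 69.0 and 40.7 CPM (4 of 10 others with the same sign), and Pde1a, a cyclic nucleotide phosphodiesterase gene, at 25.9, 77.2, 68.2 and 208 CPM against 84.2, 99.0, 115 and 99.7 CPM (3 of 10). The nearest subtypes, EN1 and EN3, were among those with the same sign, at 1.07 and 0.39 for Otof and 0.79 and 1.36 for Pde1a, against 2.70 and 2.78 in EN2. Tshz3, a zinc-finger gene, was at 31.6, 53.9, 68.2 and 108 CPM against 148, 80.9, 123 and 104 CPM (2 of 10), and so reached the level of the others only at P21. These 4 were named for this difference, which is given as a description.

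Gene lists were counted within EN2 between E19 and P21, without a test, beside the shares over all genes. Of 7779 genes at 20 CPM or more in the higher stage, 626 (8.05%) were 2-fold or more higher at P21 and 1076 (13.8%) lower, with a median log2 ratio of -0.0709. Of 35 genes of immature neurons and their cytoskeleton none was higher and 27 were lower (median -2.04). Tmsb10, which binds actin monomers, was at 437, 194, 72.2 and 6.75 CPM, the microtubule regulator Stmn1 at 578, 287, 116 and 41.9 CPM and the transcription factor Sox11 at 230, 91.7, 66.9 and 21.6 CPM. The other excitatory nuclei had nearly the same Stmn1 course (456, 242, 127 and 38.9 CPM). After thinning, Stmn1 in EN2 was no lower at P21 than at P8 (log2 ratio 0.046).

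**Figure D5:**
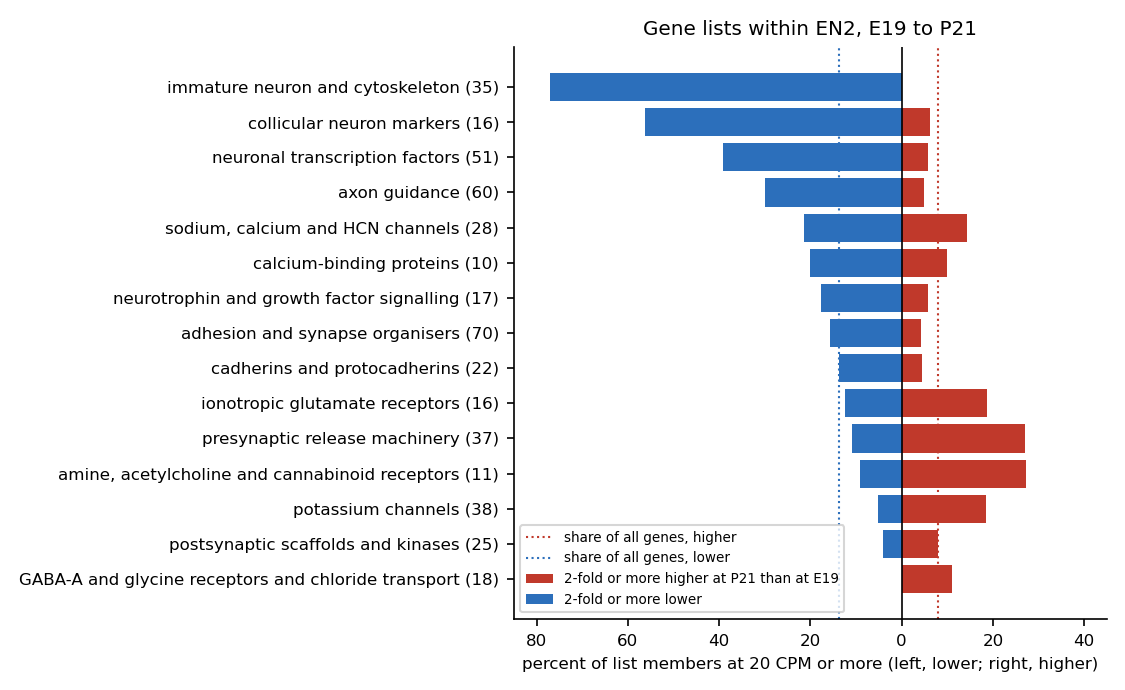
For each list with 10 or more measured members (number in brackets), the percent that were 2-fold or more lower (left) or higher (right) at P21 than at E19 within EN2, with dotted lines at the shares over all genes, 13.8% and 8.05%. Immature neuron genes have 27 of 35 members lower and none higher, and presynaptic release genes have 10 of 37 higher and 4 lower.

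Of 37 presynaptic release genes 10 were higher at P21 and 4 lower (median 0.30). Snap25, a core fusion protein, was at 147, 260, 312 and 644 CPM, the calcium sensor Syt1 at 937, 1193, 1195 and 2071 CPM and the priming factor Unc13c at 191, 376, 504 and 763 CPM. Snap25 was higher at each later stage, and Syt1 mainly at P21. The 4 lower genes were Stx1a, Syt4, Rab3a and Rab3b. Of 25 postsynaptic genes 2 were higher, the scaffold gene Dlg2 (2535, 3418, 4346 and 5865 CPM) and the kinase gene Camk2a (122, 150, 159 and 323 CPM), and 1 was lower, Dlgap4, which for the higher genes is the share over all genes.

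Of 16 ionotropic glutamate receptor genes 3 were higher at P21 and 2 lower. Grin1, the obligatory NMDA receptor subunit, was at 167, 285, 326 and 494 CPM, its partner Grin2a at 230, 450, 697 and 840 CPM and the AMPA receptor subunit Gria3 at 133, 224, 268 and 588 CPM. The kainate receptor genes Grik2 and Grik5 were the lower ones. Grik2 was at 4131, 2349, 1772 and 1931 CPM in EN2 and at 1076, 1446, 900 and 1080 CPM in the other excitatory nuclei, so the excess in EN2 was largest at E19 (log2 ratio 1.94) and 0.70 to 0.97 later. Of 6 metabotropic receptor genes Grm7 was higher (1157, 1911, 2250 and 2822 CPM) and Grm3 lower.

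Of 38 potassium channel genes 7 were higher at P21 (Kcna1, Kcna2, Kcnc2, Kcnq5, Kcnj9, Kcnk9 and Kcnip4) and 2 lower (Kcnh4 and Kcnh8). Kcna1, an axonal delayed-rectifier subunit, was at 3.77, 4.82, 14.7 and 59.4 CPM, and Kcnip4, an accessory subunit, at 1845, 4348, 5943 and 6297 CPM. The others were at 7.33, 6.59, 15.7 and 72.4 CPM for Kcna1, within a factor of 2 of EN2 at each stage. Of 18 GABA-A and glycine receptor and chloride transport genes the glycine receptor genes Glra1 and Glrb were higher, near the share over all genes, and none was lower. Of 11 amine, acetylcholine and cannabinoid receptor genes 3 were higher, all for serotonin (Htr1f, Htr2c and Htr7), and 1 lower (Chrna3). Htr7 was at 20.3, 42.6, 68.2 and 107 CPM in EN2 and at 33.8, 45.6, 25.9 and 42.2 CPM in the others, above them at P8 and P21 only.

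Among 51 transcription factors 3 were higher at P21 and 20 lower. The higher ones were Sox5, Tshz3 and Hivep2, the last at 177, 330, 445 and 787 CPM. The lower ones included Meis2, Zfhx3 and Zfhx4. These genes nevertheless stayed 2-fold or more above the summed level of the other excitatory nuclei, but not above every single subtype. EN12 held more Meis2 than EN2 at each stage, and at P21 EN1 was within 2-fold of EN2 for Zfhx3 and Zfhx4. Tcf7l2, a relative of Lef1 in the Wnt pathway, was also lower at P21. It was at 1976, 1238, 764 and 396 CPM in EN2 against 632, 732, 196 and 186 CPM in the others. Of 60 axon guidance genes 3 were higher (Epha4, Epha5 and Slit3) and 18 lower. Epha4, an ephrin receptor gene, was at 66.9, 105, 96.3 and 186 CPM in EN2 and 166, 209, 208 and 205 CPM in the others, and Slit3, a secreted guidance cue, at 68.8, 183, 223 and 205 CPM against 170, 182, 132 and 126 CPM. Efnb3, an ephrin gene, was at 100, 75.6, 24.1 and 5.40 CPM, although after thinning its log2 ratio from P8 to P21 was 0.24. EN2 thus had less Epha4 than the other excitatory nuclei together until P8 and came within 0.13 of them on the log2 scale at P21.

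Of 70 adhesion and synapse organiser genes 3 were higher at P21 and 11 lower, near the share over all genes for the latter. Mdga1, which masks neuroligins, was at 139, 94.9, 93.6 and 24.3 CPM. Of 7 genes of the perineuronal matrix Tnr was higher (196, 410, 484 and 688 CPM) and 4 were lower, among them Vcan, the gene of the proteoglycan versican (81.5, 49.9, 14.7 and 6.75 CPM). Of 8 neuropeptide and peptide receptor genes the substance P receptor gene Tacr1 was higher (17.0, 65.9, 112 and 75.6 CPM), and Sst, Tac1 and Oprl1 were lower. Tacr1 in the other excitatory nuclei was at 42.6, 46.4, 71.6 and 68.1 CPM and in inhibitory neurons at 13.5 to 20.98 CPM.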

How the data were processed

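Single nuclei of mouse superior colliculus were sequenced in 1 library per stage. Per the submitters' processing notes the authors used Cell Ranger 3.0.2 and mm10. The deposited matrix held raw counts of UMIs for 31053 genes and 9724 nuclei, and the deposited table gave stage, class, subtype, cluster and 2 sets of reference labels for each nucleus, with the percent of mitochondrial UMIs, which was at most 5.0. How the authors filtered nuclei, treated doublets and named subtypes is not given in the sources used here, and no doublet caller was run. A further 4 deposited columns were not used.

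Counts were summed per library and group and scaled to CPM, and log2 ratios had 5 CPM added, so the change of low genes is understated. Intervals are exact Poisson (levels) and Clopper-Pearson (shares) at 95%. Shares were also computed after thinning to 3000 UMIs per nucleus. Scripts were checked on simulated data. Of the gene identifiers, 99.9% were found in GENCODE M21. Python 3.11.15, NumPy 2.4.6, SciPy 1.17.1, pandas 2.3.3 and matplotlib 3.10.9 were used.

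The members and lists were chosen with earlier results of these data known. Genes were named by rank: the 14 highest and 10 lowest in EN2 against the other excitatory subtypes over all 4 stages, the 5 largest rises and falls of each step, the 2 extreme genes of each list, the 4 whose change differed most from the other subtypes in each direction, and the 8 most variable between nuclei; mitochondrial, ribosomal, haemoglobin and sex-linked genes stayed out. Bcl11b, Tfap2b and B230323A14Rik lead the comparison with the nearest subtypes, and Unc13c, Stmn1, Sox11, Tmsb10, Grin1 and Tcf7l2, with the list members given by name alone, were picked out once their values had been seen. Some genes picked by the ranking are not reported here. Alternatives were another pseudocount and CPM minimum, median-of-ratios scaling, thinning, equal weights for nuclei or subtypes, and leaving out EN1 or nuclei with 2 or more GABA UMIs. Cluster 6 alone, and the comparison without EN7, were chosen after seeing the data.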

Additional observations from a re-analysis of the deposited data

How the results depend on the processing

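No paired analysis was possible because each stage had 1 library. The EN2 shares of excitatory nuclei stayed within their intervals with only nuclei of 3000 UMIs or more and without nuclei holding 2 or more GABA UMIs. The 8 genes higher in EN2 at all 4 stages became 4 with 20 CPM added (G630016G05Rik, Gm28905, Meis2 and Zfhx3). The 20 lower ones became 34 with the other subtypes weighted alike, all 20 among them. With a minimum of 20 CPM in place of 100, the counts of higher and lower genes became 177 and 144 from E19 to P4, 83 and 196 from P4 to P8, and 345 and 409 from P8 to P21, over far more genes. Thinning to 3000 UMIs, which leaves fewer UMIs at P8 and P21, gave 56 higher and 92 lower from P4 to P8 and 257 higher and 196 lower from P8 to P21, and of the 73 and 81 genes of the last step it kept 48 and 50. From P4 to P8 the 17 higher genes became 8 with 20 CPM added and 27 in cluster 6 alone. Among single genes, 4 log2 ratios changed sign under thinning: from P8 to P21 Efnb3 (0.24, from -1.48) and Stmn1 (0.046, from -1.37), and in EN2 against the others Igfbpl1 at P21 (-0.87, from 1.01) and Slc17a7 at P8 (-0.31, from 1.11). Without EN7, Rnf220 against the others became 0.31 at E19 (from -1.10) and 1.66 at P4 (from -2.07). Median-of-ratios scaling moved log2 ratios by at most 0.0423 in the median. The P8 and P21 values rest on 44 and 36 nuclei of 1 library each, and pooled animals cannot be separated.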
